A study of Mus musculus with 6 samples.

Results

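Natriuretic peptide receptors are the cell-surface proteins that bind the natriuretic peptides, and the mouse has 3 of them, encoded by Npr1 (ENSMUSG00000027931), Npr2 (ENSMUSG00000028469) and Npr3 (ENSMUSG00000022206), on chromosomes 3, 4 and 15. They were taken from the deposited count table by Ensembl identifier, so that 3 of its 55802 rows are described here, and all 3 passed the filter on low counts. The family was chosen by gene name, with the values of CCl4 against control in these same libraries already known. Levels and fold changes of the receptors are therefore given as a description, without a test. The libraries came from livers of wild-type C57BL/6 mice. In the control group, 3 libraries came from mice that received oil, and in the CCl4 group 3 came from mice that received carbon tetrachloride, a solvent that hepatocytes turn into a reactive radical and that is used to injure and scar the rodent liver. The labels give no age, sex, dose, duration or number of animals per library, and they do not say whether libraries were made from different animals.

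Npr1 encodes NPR-A, also called guanylyl cyclase A, the receptor of the atrial and B-type peptides that the heart releases. Npr2 encodes NPR-B, guanylyl cyclase B, the receptor of C-type natriuretic peptide. Both carry a cyclase domain inside the cell that makes cyclic GMP (cGMP), a messenger that activates cGMP-dependent protein kinases and is removed by phosphodiesterases. Npr3 encodes NPR-C, the clearance receptor, which has a short intracellular tail without a cyclase, takes up all 3 kinds of peptide for degradation and can couple to inhibitory G proteins. In the liver, cGMP signalling is best known from stellate cells and the sinusoidal circulation, where it opposes contraction.

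The DNA just before the start of the receptor genes is shown for Npr1 and Npr2, since these are the cyclase receptors, one of which differed little and the other greatly between the groups. The 250 bases before each RefSeq start (GRCm38.p6) read as follows, 5′ to 3′ on the gene's strand, with matches to 3 core promoter motifs in capitals.
Npr1, chr3:90465867-90466116, minus strand: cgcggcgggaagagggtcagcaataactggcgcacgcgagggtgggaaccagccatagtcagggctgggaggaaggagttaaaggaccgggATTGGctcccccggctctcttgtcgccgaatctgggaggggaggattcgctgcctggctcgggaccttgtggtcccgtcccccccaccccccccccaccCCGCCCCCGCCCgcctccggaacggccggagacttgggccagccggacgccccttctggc
Npr2, chr4:43631685-43631934, plus strand: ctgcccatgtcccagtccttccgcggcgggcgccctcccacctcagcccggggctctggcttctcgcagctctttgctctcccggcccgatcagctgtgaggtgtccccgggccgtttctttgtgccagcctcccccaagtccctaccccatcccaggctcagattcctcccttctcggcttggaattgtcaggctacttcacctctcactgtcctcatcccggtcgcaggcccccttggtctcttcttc
The motifs searched, on both strands, were the GC box (GGGCGG), the CCAAT box (CCAAT) and the TATA box (TATAAA). The Npr1 window holds 2 adjoining GC boxes, whose leftmost bases lie 60 and 54 bases before the start, and 1 CCAAT box at 159 bases. The Npr2 window holds none of these letters. Among 32851 windows of the same length in the RefSeq table, 32.7% hold a GC box, 33.8% a CCAAT box and 12.4% a TATA box. Both windows are rich in G and C, at 70.4% for Npr1 and 64.4% for Npr2 against a median of 52.4%, and they hold 21 and 13 CpG dinucleotides against a median of 6. The Npr3 window, whose letters are not shown, is not rich in G and C (38.8%). It holds 6 CpG dinucleotides and 1 CCAAT box, at 64 bases before the start. A match is a description of the letters and the counts do not bear on binding.

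The libraries held 18929972 to 20042731 counts. A gene is named called where its Benjamini-Hochberg adjusted p from edgeR (quasi-likelihood) was under 0.05, and 41.3% of the 15579 tested genes were called. The liver label was checked against markers. Alb, which encodes albumin, took 68450 to 75620 CPM (counts per 1000000 of the scaled library size) in controls and 72300 to 75630 in CCl4 livers. Among the receptors, 1 of 3 (Npr2) was called. The choice of the family used this contrast, so nothing is read from that count.

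Npr2 was the receptor with the large difference. Its counts were 1133, 1233 and 1127 for control libraries 1, 2 and 3, and 234, 197 and 240 for CCl4 libraries 1, 2 and 3. Expressed as CPM, control livers had 60.3, 66.6 and 59.7, whereas CCl4 livers had 11.8, 9.74 and 11.8. Every control library lay far above every CCl4 library, and the libraries of a group lay close together. The mean went from 62.2 ± 3.82 CPM (SD, n = 3) to 11.1 ± 1.18, a log2 fold change of -2.49 (SE 0.09), which is 5.60-fold lower. Ordered from the most negative, that fold change was number 93 of the 15579 genes. In bulk liver, fewer cells that make a transcript and less of it per cell cannot be told apart.

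Npr1, the other cyclase receptor, was counted 253, 269 and 245 times in control livers and 260, 251 and 247 times in CCl4 livers. Its CPM values of 13.5, 14.5 and 13.0 in controls overlapped with the 13.1, 12.4 and 12.1 of the CCl4 livers. The means were 13.7 ± 0.79 and 12.6 ± 0.50 CPM (SD, n = 3). The log2 fold change was -0.12 (SE 0.09) and became 0.02 when library size alone was used for scaling, so it has no stable sign. The spread of Npr1 among controls, a coefficient of variation of 5.79%, was about what counting alone would give (6.25%).

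Npr3, the clearance receptor, was the least abundant by counts. Its counts were 70, 79 and 90 in control livers and 98, 105 and 158 in CCl4 livers, or 3.73, 4.27 and 4.77 CPM against 4.94, 5.19 and 7.76. All CCl4 libraries lay above all controls, but the gap was small for CCl4 replicates 1 and 2, and CCl4 replicate 3 stood apart. The means were 4.25 ± 0.52 and 5.96 ± 1.56 CPM (SD, n = 3), a log2 fold change of 0.49 (SE 0.20). Without CCl4 replicate 3 it was 0.25, and over the other libraries left out in turn it lay between 0.40 and 0.61. The coefficient of variation among CCl4 livers was 26.2%, against 9.12% from counting alone, while that among controls (12.3%) was near the 11.2% of counting. Groups did not overlap in CPM for 2 of the 3 receptors, Npr2 and Npr3, where 54.0% of all genes tested had groups that did not overlap. Nothing is read from this count either.

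**Figure D1:**
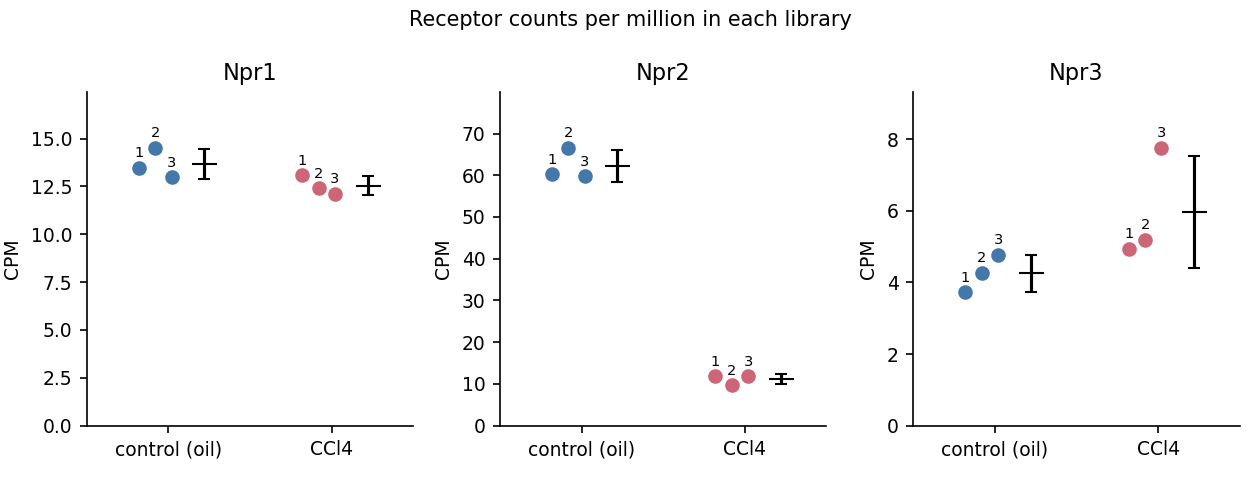
CPM of Npr1, Npr2 and Npr3 in each library, on separate linear axes that start at 0; dots are libraries numbered by replicate, and the bar beside them is the mean with 1 SD (n = 3). The Npr2 libraries separate widely, at 59.7 to 66.6 CPM in controls and 9.74 to 11.8 in CCl4 livers. Npr1 overlaps, and Npr3 is highest in CCl4 replicate 3 at 7.76.

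To compare the receptors with each other, CPM was divided by the length of each gene's merged exons in kilobases, which is 4783 bases for Npr1, 4667 for Npr2 and 9389 for Npr3 in GENCODE M21. In controls the order was Npr2, Npr1, Npr3, at 13.3 ± 0.82, 2.86 ± 0.17 and 0.45 ± 0.06 CPM per kilobase (mean ± SD, n = 3). Npr2 was 4.59 to 4.71 times as high as Npr1 in each control library. In CCl4 livers the levels were 2.62 ± 0.10 for Npr1, 2.38 ± 0.25 for Npr2 and 0.64 ± 0.17 for Npr3. There Npr1 lay above Npr2 in each library, though barely in library 3, with ratios of Npr2 to Npr1 of 0.922, 0.804 and 0.996. The order of these 2 depended on the length used. Scaled by the longest transcript, Npr1 and Npr2 were level in CCl4 library 1 (3.223 and 3.222 CPM per kilobase), Npr1 was higher in library 2 (3.05 against 2.66) and Npr2 in library 3 (3.22 against 2.98). Npr3 stayed the lowest in every library of either group.

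The make-up of the receptor transcripts differed accordingly. Npr2 held 80.1 ± 0.23% of the length-scaled receptor level in controls and 42.1 ± 1.99% in CCl4 livers. Npr1 held 17.2 ± 0.26% and 46.6 ± 3.30%, although its own level differed little. Npr3 held 2.73 ± 0.39% and 11.2 ± 2.55% (mean ± SD, n = 3 for each). The summed level of all 3 was 16.6 ± 0.98 and 5.64 ± 0.35 CPM per kilobase. The ratio of the clearance receptor to both cyclase receptors together was 0.0252, 0.0263 and 0.0327 for control livers, compared with 0.0999, 0.118 and 0.163 for CCl4 livers. The higher ratio came mostly from the lower Npr2 in the denominator, since Npr3 itself differed 1.40-fold. These are transcript shares and say nothing of receptor protein.

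**Figure D2:**
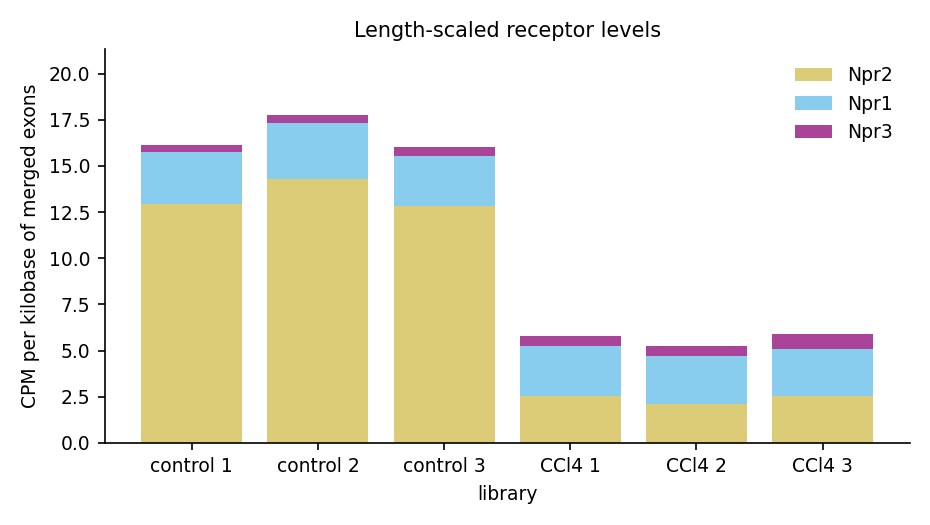
Stacked bars of CPM per kilobase of merged exons for Npr2, Npr1 and Npr3 in each of the 6 libraries, on a linear axis from 0. The summed height is 16.0 to 17.8 in controls and 5.24 to 5.89 in CCl4 livers, and the Npr2 segment accounts for most of the difference.

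Each receptor gene overlaps 1 non-coding gene on the opposite strand in GENCODE M21, and the sources used here do not say whether counting used strand. The antisense gene Gm12473 overlaps Npr2 and shares 266 of its 579 exon bases with Npr2 exons. Its counts were 22, 28 and 29 in control livers and 3, 5 and 3 in CCl4 livers, and it was called lower (log2 fold change -2.91, SE 0.34, adjusted p = 1.85e-04 by edgeR's quasi-likelihood test). Without strand, reads that lie within the 266 shared bases cannot be told apart, so the counts and the fall of Gm12473 may not be independent of those of Npr2. Gm16048, which overlaps Npr1, had 1 count in all, and Gm5144, which overlaps Npr3, also had 1.

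The nearest tested genes beside Npr2 did not show a difference of its size. Spag8, which lies 90 bases beyond it in GENCODE M21, stood at 0.61 ± 0.16 and 0.63 ± 0.07 CPM (SD, n = 3; log2 fold change 0.05, SE 0.32, adjusted p = 0.911 by edgeR). On the other side Rgp1, 44447 bases away, was called lower by a much smaller amount (-0.42, SE 0.07, adjusted p = 0.00123 by edgeR). Beside Npr1, Ints3 (0.13) and Ilf2 (0.04) were not called. Beside Npr3, Tars (-0.18) and Sub1 (0.10) were not called. With library size alone as the scaling, Ints3 and Sub1 were called higher, Sub1 also with upper quartile scaling (adjusted p = 0.0308), and with no filter on low counts Tars was called lower (adjusted p = 0.0494).

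Markers of the cell types a liver sample can hold were measured beside the receptors, and their part in the receptor differences was not tested. Markers of the cells of the sinusoid differed less than Npr2 did. Stab2, a scavenger receptor of sinusoidal endothelium, stood at 68.4 to 72.4 CPM in controls and 63.9 to 70.1 in CCl4 livers. Summed over 8 sinusoidal endothelial markers the range was 325.6 to 353.0 and 339.2 to 385.0 CPM, with 2 called higher and 1 lower. Over 9 markers of quiescent stellate cells it was 223.0 to 268.4 and 212.6 to 249.2 CPM, with 2 higher and 1 lower. Lrat, the retinol-esterifying enzyme of stellate cells, was a higher one (0.75, SE 0.07, adjusted p = 5.06e-05 by edgeR). The lower one was Ecm1, named after its value was seen. It went from a mean of 98.3 to 43.5 CPM (-1.18, SE 0.08, adjusted p = 9.70e-06 by edgeR) and weighs heavily in the sum. The median log2 fold change of the stellate list was 0.286. Over 6 hepatocyte markers it was 87820 to 93880 and 89130 to 95500 CPM, with 1 higher (Ttr 0.24) and 1 lower (Serpina1a -0.27). Most of that sum is Alb, so it says little of the others. Apoa1 (-0.37) and Hnf4a (-0.19) were not called, though their groups did not overlap, and Fgb (0.12) was not called either.

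Most tested markers of myofibroblasts, of monocytes and macrophages and of neutrophils were higher, while other lists were mixed. Of 8 myofibroblast markers 7 were called higher, with summed ranges of 87.2 to 138.1 and 787.0 to 831.2 CPM. Col1a1, a chain of type I collagen, rose (log2 fold change 3.83, SE 0.29, adjusted p = 4.89e-04 by edgeR). Acta2, the smooth muscle actin, was at 5.70, 5.03 and 1.01 CPM in controls and 9.78, 8.06 and 6.73 in CCl4 livers (1.07, adjusted p = 0.189), and was called without control replicate 3 (0.60, adjusted p = 0.035). Of 8 monocyte and macrophage markers 7 were higher, among them Ccr2 (2.08). The neutrophil marker S100a8 (1.75) and the cholangiocyte keratin Krt19 (1.10) were also called higher, within lists of which 4 of 4 and 3 of 5 tested genes were higher. Of 7 portal fibroblast markers 4 were higher (Eln 2.12, Mfap4 1.74, Entpd2 0.86 and Fbln2 0.75), while Thy1 was not called. Of 6 Kupffer cell markers 3 were higher (Adgre1 1.25, Cd5l 1.23 and Vsig4 0.91) and Timd4 was lower (-0.97), while Clec4f was not called. Of 4 tested smooth muscle markers 2 were higher (Lmod1 1.19 and Smtn 0.80), while Myh11 (0.36) and Tagln (-0.24) were not called. Cnn1 and Actg2 of that list had too few counts to be tested. Cnn1 had 14, 4 and 3 counts in controls and 1, 0 and 3 in CCl4 livers. Actg2 had 8, 17 and 2 against 4, 1 and 4. Of 10 vascular endothelial markers 1 was higher (Cd34 1.66) and 2 were lower (Selp -1.01 and Kdr -0.18), while Pecam1 was not called. Of 8 tested lymphocyte markers 1 was higher (Cd79a 0.59), while Cd3e was not called. Beyond Thy1, Clec4f, Myh11, Pecam1 and Cd3e, the genes of these 5 lists were named after their values were seen. Of 6 mesothelial markers 5 were higher, with summed ranges of 7.08 to 9.69 and 19.6 to 50.2 CPM. Msln, mesothelin, was among them (2.13, adjusted p = 0.0473) but was not called by limma-voom (adjusted p = 0.162), with no filter on low counts (0.141), or when any library other than CCl4 3 was left out (0.0627 to 0.141). CCl4 replicate 3, highest in Npr3, was the lowest CCl4 library in the mesothelial, hepatocyte, Kupffer cell, monocyte and macrophage, neutrophil and adipocyte sums. It was the highest in those of 7 portal fibroblast markers (75.7 CPM, against 51.7 and 59.3) and of 6 cholangiocyte markers (52.1 CPM, against 40.1 and 44.9). The sum of 9 quiescent stellate cell markers was also highest there (249.2 CPM, against 212.6 and 229.3). Within the cholangiocyte list Epcam, Cftr and Pkhd1 were highest in CCl4 replicate 3. Krt7 and Sox9 were lowest there, and Krt19 was highest in CCl4 replicate 2. The part of these lists in Npr3 was not tested.

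Adipocyte markers set control replicates 1 and 3 apart. Adipoq, the adiponectin gene, was counted 87, 4 and 119 times in control libraries 1, 2 and 3, and 0, 1 and 0 times in CCl4 livers. The summed CPM of 5 adipocyte markers was 20.3, 2.11 and 34.5 in controls and 0.05 to 0.15 in CCl4 livers. Among the controls Npr2 was highest in library 2, where the adipocyte sum was lowest. With control replicate 2 as the one control, the log2 fold change of Npr2 was -2.59, that of Npr1 -0.22 and that of Npr3 0.48. This setting was added after the data had been seen and takes the single control to vary like the other libraries.

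The other genes of the pathway were described from 7 lists with 64 genes. Of these 36 passed the filter on low counts, and 20 were called, 13 higher and 7 lower, which is 55.6% of those tested beside the 41.3% of all genes. Upper quartile scaling gave 16 higher and 5 lower, and so did library size alone. With control replicate 2 as the one control 9 of these 20 were still called, namely Rgs2, Vasp, Pde1b, Abcc5, Gnai2 and Plcb2 higher and Dpp4, Pcsk6 and Pde3b lower. The median log2 fold change of the 36 was 0.29, and that of all genes tested in the same fit was 0.00056. With library size alone the median of all genes tested was 0.147. No median of the 36 is given for that scaling, so 0.29 and 0.147 are not to be compared.

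The ligands were all but undetected. Nppa, Nppb and Ostn, which encode atrial and B-type natriuretic peptide and osteocrin, a ligand of the clearance receptor, had 0 counts in all 6 libraries. Nppc, which encodes C-type natriuretic peptide, the ligand of NPR-B, had 1 count, in control replicate 2. A count of 0 allows up to 3 counts, or 0.147 to 0.162 CPM in these libraries, and these limits cover counting error only. No difference between the groups was detectable for the ligands at this depth.

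Of 8 genes that process or degrade the peptides 5 were tested, with 1 called higher and 3 lower. Mme, neprilysin, the membrane protease that degrades natriuretic peptides, stood at 46.4, 54.5 and 57.0 CPM in controls and 69.5, 67.8 and 79.4 in CCl4 livers. It was called higher (log2 fold change 0.46, SE 0.09, adjusted p = 0.00309 by edgeR). Dpp4, a dipeptidyl peptidase that can trim B-type peptide, fell from 178.6 ± 9.11 to 120.8 ± 2.64 CPM (mean ± SD, n = 3; -0.56, SE 0.06, adjusted p = 8.44e-05). The proprotein convertases Pcsk6 (-0.49) and Furin (-0.32) also fell. Corin, the protease that cleaves the atrial precursor in the heart, had 3 to 6 counts per library and was not tested.

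Of the 12 other guanylyl cyclases and nitric oxide synthases 4 were tested and 1 was called. Gucy1a1, the alpha subunit of the soluble cyclase that nitric oxide activates, stood at 10.4, 11.4 and 11.2 CPM in controls and 18.5, 22.1 and 29.0 in CCl4 livers. It rose by 1.07 (SE 0.16, adjusted p = 0.00102), with CCl4 replicate 3 again the highest library. Its partner Gucy1b1 went from 7.28 ± 0.75 to 9.11 ± 1.10 CPM without a call (mean ± SD, n = 3; 0.32, SE 0.13, adjusted p = 0.0692 by edgeR), and was called with upper quartile scaling or library size alone. Nos3, the endothelial nitric oxide synthase, was at 2.53 ± 0.16 and 2.78 ± 0.97 CPM (adjusted p = 0.695).

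Downstream of cGMP, 7 of 9 kinase and substrate genes were tested, with 3 called higher and 1 lower. Prkg1, the kinase of smooth muscle and related cells, was counted 39, 29 and 25 times in control livers and 49, 46 and 58 times in CCl4 livers. The groups did not overlap, but it was not called (0.61, SE 0.22, adjusted p = 0.0533). It was called with upper quartile scaling (adjusted p = 0.0346), library size alone (0.0248) and limma-voom (0.0468), and without control replicate 1 (0.80, adjusted p = 0.0342). Prkg2, the membrane-bound kinase, rose from 2, 4 and 1 counts to 14, 22 and 10 (2.55, SE 0.54, adjusted p = 0.00429 by edgeR). Rgs2, a brake on Gq signalling, rose by 1.11 (SE 0.12, adjusted p = 1.31e-04) and Vasp, an actin regulator phosphorylated by the kinase, by 0.66 (SE 0.10, adjusted p = 7.60e-04). Itpr1, a calcium release channel, fell from 70.2 ± 1.47 to 49.9 ± 5.87 CPM (mean ± SD, n = 3; -0.49, adjusted p = 0.00114).

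The genes named as phosphodiesterases, some of which encode enzymes that break down cGMP, were mixed. Of the 16 listed 11 were tested, with 3 called higher and 1 lower. The list also holds Pde6d, a prenyl-binding chaperone without phosphodiesterase activity, and the inhibitory subunits Pde6g and Pde6h, so its count is not one of enzymes alone. Pde1b, a calcium-dependent enzyme, rose from 2.55, 2.32 and 2.01 CPM to 4.89, 5.09 and 6.04 (1.22, SE 0.17, adjusted p = 4.25e-04). Pde6d (0.45, adjusted p = 0.0136) and Pde1a (0.53, adjusted p = 0.0236) were also called higher. Pde1a lost its call when any of control 1, control 2, CCl4 1 and CCl4 2 was left out (adjusted p 0.0531 to 0.0851), and neither was called by DESeq2 (adjusted p = 0.0578 for Pde6d and 0.0832 for Pde1a). Pde3b, which cGMP inhibits, fell by 0.31 (SE 0.05, adjusted p = 0.00162). Pde5a, the cGMP-specific enzyme that sildenafil blocks, was at 2.67 ± 0.11 and 3.09 ± 0.51 CPM (mean ± SD, n = 3; 0.21, SE 0.18, adjusted p = 0.384 by edgeR).

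The export pumps were higher. Of 8 channels and pumps 2 were tested, and both were called. Abcc4, which pumps cyclic nucleotides and bile acids out of the cell, stood at 3.73, 3.94 and 2.81 CPM in controls and 11.3, 11.7 and 19.8 in CCl4 livers (2.03, SE 0.26, adjusted p = 8.54e-04). Abcc5, another cyclic nucleotide pump, rose by 0.87 (SE 0.09, adjusted p = 7.58e-05). The 6 cyclic nucleotide-gated channel genes had 0 to 5 counts per library.

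Of 7 genes on the signalling side of the clearance receptor, inhibitory G protein subunits and phospholipase C beta forms, 3 were called higher and 2 lower. Gnai2, an inhibitory subunit abundant in blood cells, rose from 72.9 ± 1.07 to 103.2 ± 6.90 CPM (mean ± SD, n = 3; 0.50, SE 0.06, adjusted p = 2.03e-04). Plcb2, a phospholipase of blood cells, rose by 1.11 (SE 0.15, adjusted p = 3.42e-04). Gnai1 was called higher (0.80, adjusted p = 0.0206), though not by DESeq2 (adjusted p = 0.067) and not when any of control 2, control 3 and CCl4 3 was left out (adjusted p 0.0508 to 0.0698). Gnai3 was called lower by a small amount (-0.20, adjusted p = 0.0122), and not with upper quartile scaling (adjusted p = 0.103) or library size alone (0.469). Plcb1, named after its value was seen, was lower (-0.45, adjusted p = 0.0287) and lost its call with either scaling (adjusted p = 0.0566 and 0.0814) and when any of control 1, control 3, CCl4 2 and CCl4 3 was left out (adjusted p 0.0603 to 0.0875). Over the monocyte and macrophage markers that Gnai2 and Plcb2 rose beside, the summed CPM was 64.1 to 76.4 in controls and 275.5 to 318.4 in CCl4 livers, and their part was not tested.

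**Figure D3:**
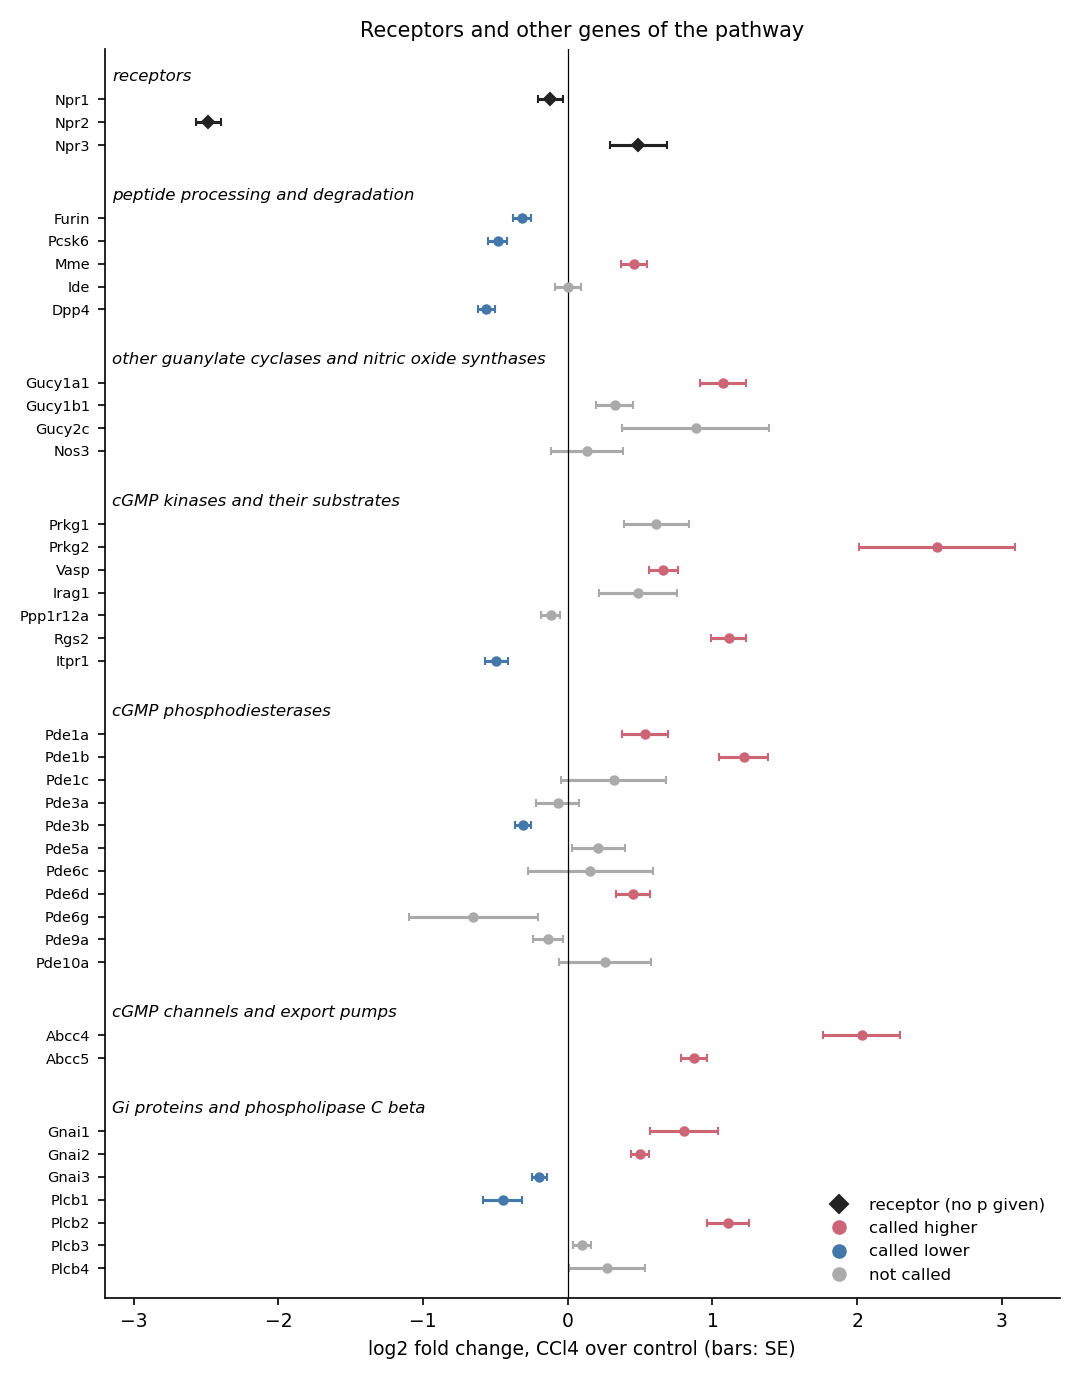
Log2 fold change, CCl4 over control, of the 3 receptors (black diamonds, given without a p) and of the 36 other pathway genes that passed the filter on low counts, grouped by role; bars are standard errors. Npr2 at -2.49 lies at the low end, while called pathway genes reach from Dpp4 at -0.56 to Prkg2 at 2.55.

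The genes whose profile over the 6 libraries was closest to that of each receptor were found by the root mean square difference of log2 CPM, each gene centred on its own mean, among 12128 genes. They were picked for their likeness in this same contrast, so no test is given. For Npr2 they were Rd3 (0.158), Srgap3 (0.221), Cyp2c67 (0.252), Cyp2u1 (0.259) and Abcg8 (0.289), where the number is that difference on the log2 scale. Rd3, the closest, went from 2.33 ± 0.46 to 0.41 ± 0.06 CPM and rests on 9, 7 and 9 counts in CCl4 livers. Srgap3 went from 5.575 ± 0.68 to 1.22 ± 0.26 CPM, and Cyp2u1 from 67.6 ± 4.68 to 13.5 ± 2.59. Abcg8, a subunit of the sterol export pump of the bile canaliculus, went from 116.4 ± 17.1 to 27.2 ± 1.57 CPM. The cytochrome P450 gene Cyp2c67 went from 340.0 ± 3.06 to 60.8 ± 11.8 CPM (mean ± SD, n = 3 for each gene), and its reads are uncertain because of near-identical Cyp2c copies.

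For Npr1 the closest profiles were those of Ss18 (0.0141), Bnip1 (0.0169), Ddx42 (0.0219), Zfp131 (0.0244) and Yif1b (0.0264). Their log2 fold changes ran from -0.15 to -0.09. For Npr3 they were Fzd1 (0.0689), a Wnt receptor, Rasgrp1 (0.078), Mtss1l (0.0835), Slc16a9 (0.085) and Sema6c (0.0868), and in each of these CCl4 replicate 3 was the highest library, as it was for Npr3. Differences are smaller for Npr1 because its whole profile spans little. Its coefficients of variation, 5.79% in controls and 3.98% in CCl4 livers, did not exceed those from counting alone (6.25% and 6.29%). Likeness to Npr1 within a group thus cannot be told apart from likeness to counting noise.

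**Figure D4:**
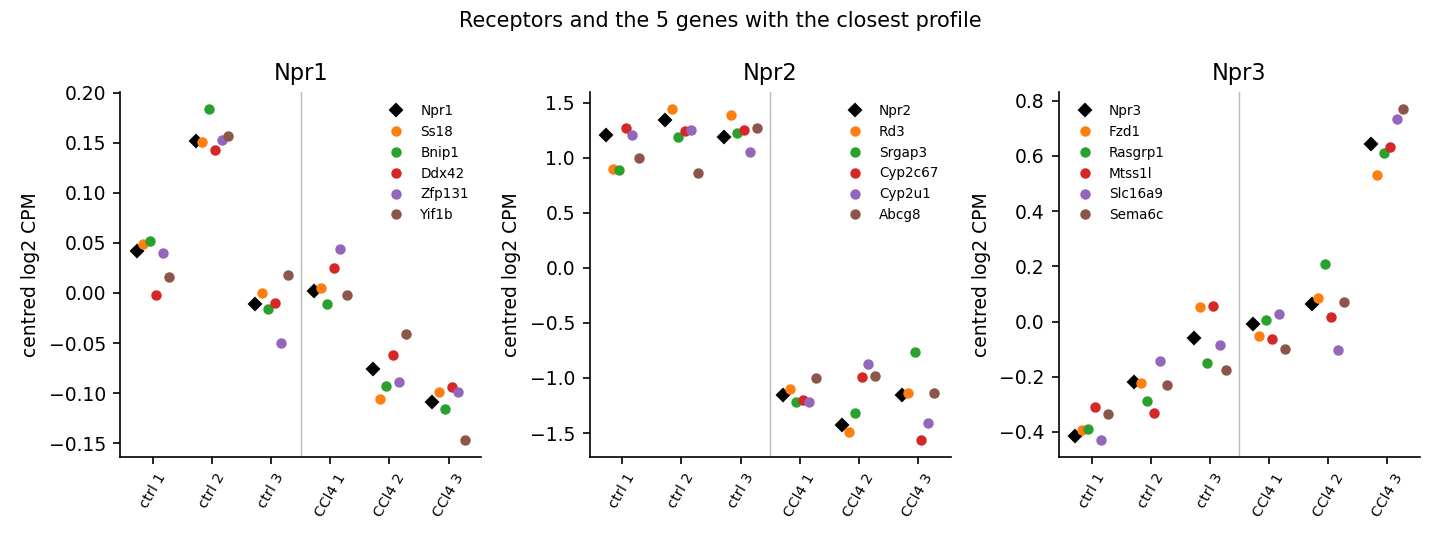
Log2 CPM, centred on each gene's mean over the 6 libraries, for each receptor (black diamonds) and its 5 closest genes (coloured dots), with a line between controls and CCl4 libraries; the vertical scales differ between panels. The Npr2 panel separates the groups, the Npr1 panel spans a narrow range, and the Npr3 panel is set by CCl4 replicate 3.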

How the data were processed

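Liver messenger RNA was sequenced from 3 control and 3 CCl4 libraries. The authors deposited raw counts per gene. Reads were filtered and aligned with HISAT2, per the series' design text, and featureCounts is named per the submitters' processing notes. No source used here gives tool versions, the build, the annotation, the strand setting or how multiply matching reads were handled. No molecular identifiers are mentioned. Of 55802 rows, 55359 carry Ensembl identifiers, and 52083 of these matched a symbol in GENCODE M21. The other 443 rows held 0.543 to 0.679% of counts.

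Groups come from the sample titles. The main test was edgeR 4.0.16 under R 4.3.3 (filterByExpr, TMM, robust glmQLFit and glmQLFTest, Benjamini-Hochberg adjustment over 15579 genes). CPM uses TMM-scaled library sizes, and a standard error is the size of the log2 fold change over the square root of F. Since separate animals are not stated, a p-value here reflects only how these libraries vary, possibly for technical reasons. Libraries of a group were not duplicates (chi-square per gene 5.19 to 23.0). On simulated data with 15054 genes tested, 89.4% of 94 genes with a log2 change of 1 were recovered, as were 100% of 96 with a log2 change of 2. Of 14864 unchanged genes 16 were falsely called. The simulation gave all genes the same dispersion and changed far fewer genes than were called here, so its rates need not hold for these libraries.

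Members and lists were chosen with earlier results of these data known. Named genes are the receptors, the ligands, a few fixed pathway and marker genes, up to 4 called genes of smallest adjusted p per pathway list, the 5 closest profiles per receptor (mean of at least 1 CPM, a count in every library, no clone names) and overlapping and neighbouring genes. Alternatives were other scalings and filters, DESeq2 1.42.0, limma-voom (limma 3.58.1), a replicate block, leaving out single libraries and, added after the data were seen, control replicate 2 as the one control. Promoter windows come from RefSeq (GRCm38.p6).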

Additional observations from a re-analysis of the deposited data

How the results depend on the processing

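Npr2 stayed lower in every alternative run, with log2 fold changes from -2.59 to -2.34, the latter with library size alone. Npr3 stayed above 0, from 0.25 to 0.64. Npr1 ran from -0.22 (control replicate 2 as the one control) through -0.04 (upper quartile scaling, -0.0363) to 0.02 (library size alone, 0.0235). With each library left out in turn, Npr1 ran from -0.16 to -0.08, Npr2 from -2.53 to -2.40 and Npr3 from 0.25 to 0.61. With the longest transcript as the length, the control shares of Npr1 and Npr2 were 16.0% and 81.0%, a shift larger than their small SD, and the CCl4 shares were 44.3% and 43.4%.

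With control replicate 2 as the one control, 2676 genes and 9 pathway genes were called, with fewer libraries. The called neighbours of the receptors numbered 2, but 4 with library size alone and 1 with a strict filter on low counts, which left out Gm12473. Leaving out single libraries gave 5229 to 6408 genes, 18 to 19 pathway genes and 2 neighbours.

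Deviations of same-numbered libraries were only weakly correlated (0.0483, 0.00396 and 0.0635). Between libraries of different number the correlations ran from -0.0803 to 0.0365. With so few libraries this cannot decide whether the numbers mark pairs. The replicate block gave 6416 genes and 19 pathway genes, and Plcb1 was not called with it (adjusted p = 0.0555). Of 52 tested genes named or listed, 27 kept their side of the threshold in all alternatives, 25 changed it in at least 1 and 0 called ones reversed. The ligands, Corin and the overlapping genes of Npr1 and Npr3 did not pass the filter on low counts and were not tested. Adipoq, with 87, 4 and 119 counts in controls and 0, 1 and 0 in CCl4 livers, did not pass it either.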
